A study of Homo sapiens with 4 samples.

Results

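The genes described here take up cystine, make glutathione from it, recycle and break down glutathione, and use it against peroxides. The members are SLC7A11, SLC3A2, GCLC, GCLM, GSS, GSR, CHAC1, GPX4, GPX1 and GGT1, listed by gene symbol, with earlier results of these data known, and all 10 were found among the 61806 genes of the count table. RNA with a poly(A) tail was sequenced from MDA-MB-231, a human breast cancer line, and MDA-MB-435, a line that the sample labels call melanoma cells, each as a wild-type control and after CPYPP, a small-molecule inhibitor of DOCK proteins that the study used to trigger paraptosis, a form of cell death with large cytoplasmic vacuoles. The labels give 6 h for the CPYPP libraries and the treatment description gives a dose of 10 µM, and the descriptions of culture and treatment name MDA-MB-435 for every sample, so that the line of each library was taken from its label. There was 1 library for each of the 4 combinations of line and treatment and no replicate culture, and what the control cells received in place of CPYPP is not given in the sources used here.

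Cystine, the oxidized form of cysteine outside cells, enters in exchange for glutamate through a transporter made of a light chain, SLC7A11, which carries the substrate, and a heavy chain, SLC3A2, which brings it to the plasma membrane and serves several other light chains as well. Inside the cell cystine is reduced to cysteine, which glutamate-cysteine ligase (catalytic subunit GCLC, modifier subunit GCLM) joins to glutamate before GSS adds glycine to complete glutathione. GSR returns oxidized glutathione to the reduced form, CHAC1 cleaves glutathione in the cytosol, GGT1 cleaves it at the cell surface, and the selenoenzymes GPX1 and GPX4 spend it to reduce hydrogen peroxide and lipid peroxides. SLC7A11, GCLM, GCLC and GSR are textbook targets of the transcription factor NRF2 (NFE2L2), and CHAC1, SLC7A11 and SLC3A2 are known targets of ATF4.

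Reads counted on genes came to between 17196385 and 22663954 per library, and the shallowest library was the MDA-MB-231 CPYPP library. Folds are CPYPP over control after TMM scaling within a line, with 95% exact binomial intervals (Clopper-Pearson) that cover counting error only, and a gene was called higher or lower where the fold passed 2 and the Benjamini-Hochberg adjusted p of edgeR's binomial test was under 0.05. Such a call compares those libraries, not the conditions, because nothing measures how far cultures of a line differ. Of 8 melanocyte markers, 5 had at least 10 counts in both MDA-MB-435 libraries and 2 in both MDA-MB-231 libraries. SOX10, S100B and DCT were present in MDA-MB-435 and at 0 to 3 counts in MDA-MB-231, while the pigment genes PMEL, MLANA, TYR and TYRP1 stayed at 34 counts or fewer in every library. MITF, the master regulator of melanocytes, did not separate the lines, with 71.0 CPM in the control library of MDA-MB-231 and 59.1 CPM in that of MDA-MB-435. Of 8 breast and epithelial markers, KRT19, EPCAM and CDH1 were well above 0 in MDA-MB-231 and at 4 counts or fewer in MDA-MB-435, and ESR1 and PGR did not exceed 24 counts anywhere. The other 3 were present in both lines, KRT18 with 5740 and 4077 counts, KRT8 with 522 and 310 and GATA3 with 187 and 83 in MDA-MB-435. CDH1 (E-cadherin), with 837 and 464 counts in the libraries labelled MDA-MB-231, is usually described as absent from that line, and the identity of the lines was not verified here. The summed level of the melanocyte markers was lower after CPYPP in both lines (73.1 to 44.1 CPM in MDA-MB-231 and 259.9 to 145 CPM in MDA-MB-435). In MDA-MB-231 the sum was nearly all MITF (71.0 to 41.2 CPM), in MDA-MB-435 SOX10 went from 3031 to 707 counts, and the part of this in the results on glutathione genes was not tested.

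After CPYPP the cystine carrier SLC7A11, both subunits of the ligase that starts glutathione synthesis, the reductase GSR and CHAC1, which degrades glutathione, were called higher in each line, and the heavy chain SLC3A2 in MDA-MB-435. GSS and both peroxidases did not pass the threshold in either line. In MDA-MB-231, 5 of the 9 tested members were called higher (SLC7A11, GCLC, GCLM, GSR and CHAC1) and 0 lower, against 4.22% of all 16441 tested genes called higher and 3.09% called lower. In MDA-MB-435, 6 of the 9 were called higher, the same 5 and SLC3A2, and 0 lower, against 3.17% and 6.52% of 16527 tested genes. Genes called higher in both lines were 1.04% of the 14262 genes tested in both, and 5 members were among them. The median log2 fold of the 9 tested members was 1.34 in the breast cancer line and 1.41 in MDA-MB-435, where the medians over all tested genes were -0.01 and -0.02. Each of the 9 had at least 10 counts in every library, and GGT1, the tenth, had too few counts to test. The 10 genes together held 0.123% of counted reads in the control library of MDA-MB-231 and 0.302% after CPYPP, and 0.0812% and 0.253% in MDA-MB-435. In a bulk sample fewer cells with a transcript cannot be told apart from less of it in each cell. Where a biological coefficient of variation of 0.4 was assumed in place of counting error alone, 0 members remained called in MDA-MB-231, and 2 (SLC7A11 and CHAC1) did in MDA-MB-435. The share of all tested genes that remained called at 0.4 was not counted, so these numbers have no background beside them.

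**Figure D1:**
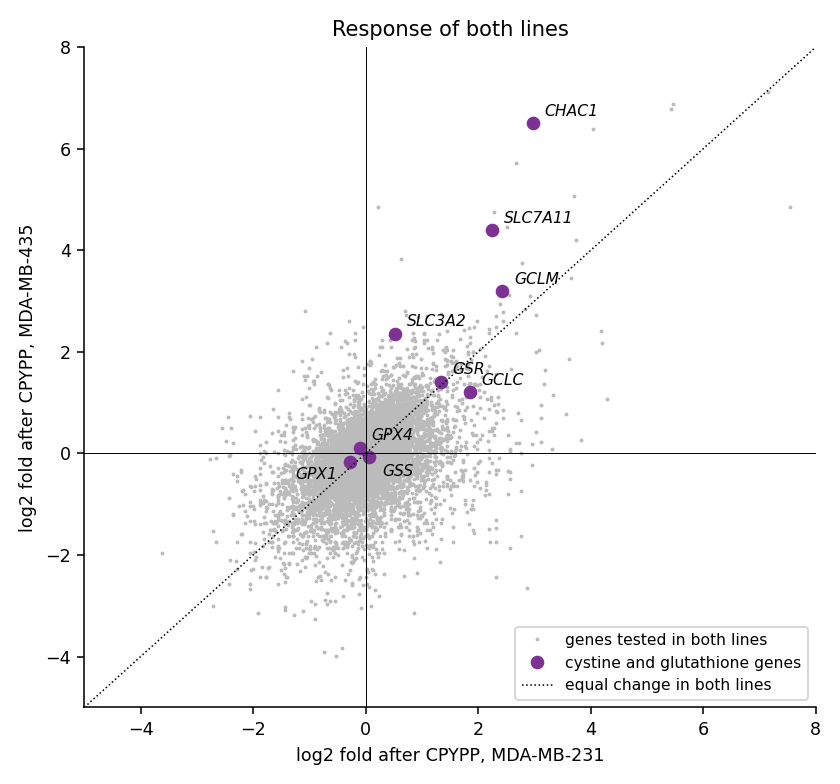
Log2 fold change after CPYPP in MDA-MB-231 (horizontal axis) against that in MDA-MB-435 (vertical axis); grey points are the 14262 genes tested in both lines, purple points the 9 tested cystine and glutathione genes, and the dotted line marks equal change. CHAC1 (2.98 and 6.50), SLC7A11 (2.25 and 4.39) and SLC3A2 (0.53 and 2.36) lie above the dotted line by more than 1, GSR lies on it, GCLC below it, and GSS, GPX4 and GPX1 sit near the origin.

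RefSeq promoter windows (GRCh38.p14, 250 bases before to 50 after a start) were given for 7 of the 10 members, in 12 windows. SLC7A11, GSS and GSR had no window and could not be searched. The 12 windows were searched on both strands for TGACNNNGC, the core of the antioxidant response element bound by NRF2 with a small MAF protein, and for TGATGNAA, the composite element of C/EBP and ATF factors. The first also takes in AP-1 sites (TGACTCA) that are followed by GC. It is held by 13.3% of all 35116 windows of this length, and the C/EBP-ATF letters by 3.62%. Of the members called higher, only SLC3A2 (3 windows), GCLC, GCLM and CHAC1 (1 window each) could be searched. Among them, GCLM, SLC3A2 and CHAC1 had a match upstream of a start. Their sequences are shown 5′ to 3′ on the gene's strand with the match in capitals, because each was called higher in at least 1 line. The GCLM and SLC3A2 stretches are the 250 bases before the start, and the CHAC1 stretch is 30 bases around the match, since the window lies within the first exon of longer CHAC1 transcripts.
GCLM, chr1:93909431-93909680, minus strand: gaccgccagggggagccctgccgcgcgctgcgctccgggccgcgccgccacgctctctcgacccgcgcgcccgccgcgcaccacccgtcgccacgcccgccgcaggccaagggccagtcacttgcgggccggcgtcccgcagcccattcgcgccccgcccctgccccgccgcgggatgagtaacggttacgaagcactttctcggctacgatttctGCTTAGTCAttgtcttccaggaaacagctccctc
SLC3A2, chr11:62881449-62881698, plus strand: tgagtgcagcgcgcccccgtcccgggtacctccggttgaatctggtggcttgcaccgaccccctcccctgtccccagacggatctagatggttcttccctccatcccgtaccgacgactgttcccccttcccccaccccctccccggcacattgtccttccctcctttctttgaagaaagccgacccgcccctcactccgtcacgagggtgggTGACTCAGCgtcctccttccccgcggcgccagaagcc
CHAC1, chr15:40953251-40953280, plus strand: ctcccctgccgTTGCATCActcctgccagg
The GCLM match (on the opposite strand to the gene) and the SLC3A2 match are of the antioxidant response element core and begin 34 and 37 bases before the start, and the CHAC1 match is of the C/EBP-ATF element and begins 209 bases before it. The SLC3A2 match (TGACTCAGC) is also an AP-1 site followed by GC, and the letters cannot tell these apart. A further C/EBP-ATF match in the SLC3A2 window lies just after that start, which is an internal start of the gene. GGT1, which hardly any read reached, also had an antioxidant response element core (GCTGGGTCA, 29 bases before a start). The windows of GCLC, GPX4 and GPX1 held neither motif. These matches describe letters only.

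SLC7A11 (ENSG00000151012, GRCh38 chr4:138164097-138242349, minus strand), the cystine-carrying light chain, had 5380 counts in the control library of MDA-MB-231 and 18742 after CPYPP, and 845 and 13770 counts in MDA-MB-435. It was higher after CPYPP in each line, 4.75-fold (4.61 to 4.90) in the breast cancer line and 21.0-fold (19.6 to 22.6) in MDA-MB-435. Ranked by counts among all genes of a library, SLC7A11 moved from place 759 to place 60 in MDA-MB-231 and from place 5790 to place 126 in MDA-MB-435. An antisense gene, SLC7A11-AS1, overlaps SLC7A11 over 14081 bases on the other strand. It had 31 and 145 counts in MDA-MB-231, a 6.38-fold difference (4.31 to 9.74), and 2 and 123 counts in MDA-MB-435, a ratio of the counts as they stand of 79.3 with a counting interval of 21.5 to 662. The strand setting of the counting is not stated, so reads of the overlapping pair may be shared between them, but antisense counts were few beside those of SLC7A11, and adding them to SLC7A11 left its folds at 4.76 and 21.2.

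SLC3A2 (ENSG00000168003, chr11:62856004-62888880, plus strand), the heavy chain, had 6427 counts in the control library of MDA-MB-231 and 6776 after CPYPP, and 2767 and 10991 counts in MDA-MB-435. In MDA-MB-231 the fold was 1.44 (1.39 to 1.49), which was above 1 but did not reach the threshold, and in MDA-MB-435 it rose 5.12-fold (4.91 to 5.34). SLC3A2 was the 1 member whose call differed between the lines in these counts. The study itself listed SLC3A2 as significantly upregulated in both lines. Its MDA-MB-231 result thus differs from the value found here, and the reason was not tested.

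The transcripts of the cystine transporter's subunits did not keep step with each other in either line. The number of SLC7A11 reads per SLC3A2 read needs no scaling between libraries. It was 0.837 (0.807 to 0.868) in the control library of MDA-MB-231 and 2.77 (2.69 to 2.84) after CPYPP, a change of 3.30-fold (exact conditional interval 3.16 to 3.46), or 1.72 (1.66 to 1.79) as a difference of log2 folds. In MDA-MB-435 it was 0.305 without CPYPP (0.282 to 0.330) but 1.25 with it (1.22 to 1.28), a change of 4.10-fold (3.78 to 4.45), or 2.04 (1.92 to 2.16) as a difference of log2 folds. In each line the light chain thus gained on the heavy chain by far more than counting error, and in MDA-MB-435 it did so although the heavy chain also rose. Per kb of exon, which allows levels of different genes to be set beside each other, SLC7A11 was at 0.555 of the SLC3A2 level in the control library of MDA-MB-231 and at 1.83 times it after CPYPP. In MDA-MB-435 the corresponding values per kb were 0.202 and 0.830, so that the heavy chain remained the more abundant transcript there by this measure. Exon lengths in the table join the exons of all transcripts of a gene, so a level per kb is approximate where a cell uses shorter forms. Adding the antisense reads gave changes of 3.31-fold and 4.13-fold.

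**Figure D2:**
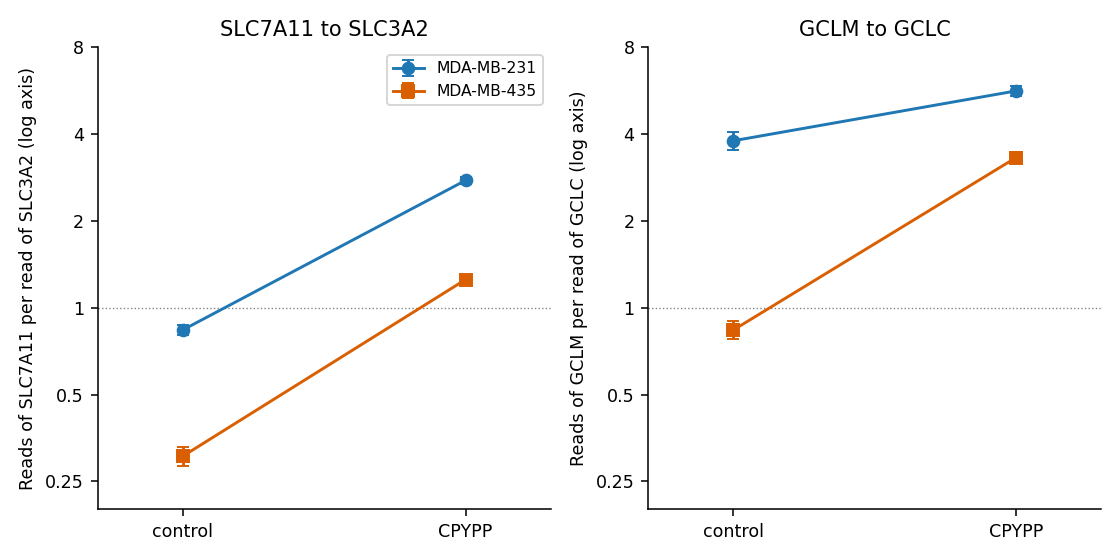
Reads of SLC7A11 per read of SLC3A2 (left) and of GCLM per read of GCLC (right) in the control and CPYPP libraries of each line, on log axes, with 95% exact binomial intervals. SLC7A11 goes from 0.837 to 2.77 per SLC3A2 read in MDA-MB-231 and from 0.305 to 1.25 in MDA-MB-435, while GCLM goes from 3.79 to 5.65 per GCLC read in MDA-MB-231 and from 0.836 to 3.32 in MDA-MB-435.

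SLC3A2 has other partners, which were compared after their values had been seen. SLC7A5, the light chain of the transporter that brings in large neutral amino acids such as leucine, had 18458 counts in the control library of MDA-MB-231 and 10506 after CPYPP (fold 0.777, 0.758 to 0.796, not called). In MDA-MB-435 it had 1888 and 6777 counts and rose 4.63-fold (4.40 to 4.87). SLC7A6, a light chain for basic and neutral amino acids, had folds of 1.13 and 1.16 and was not called, and SLC7A7, SLC7A8 and SLC7A10 had at most 57 counts in a library. SLC7A5 fell behind SLC3A2 in MDA-MB-231, from 2.87 to 1.55 reads per SLC3A2 read (change 0.540, 0.518 to 0.563), and nearly kept step in MDA-MB-435, from 0.682 to 0.617 (change 0.904, 0.846 to 0.966). Over the 6 light chains, in normalized CPM per kb of exon, SLC7A11 held 12.1% of the summed level in the control library of MDA-MB-231 and 45.4% after CPYPP. In MDA-MB-435 its share was 14.2% in the control library and 48.1% after CPYPP. The summed level of the light chains per unit of SLC3A2 went from 4.57 to 4.04 in MDA-MB-231 and from 1.42 to 1.73 in MDA-MB-435. After CPYPP close to 1 in 2 light-chain transcripts by this measure was SLC7A11 in each line.

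**Figure D3:**
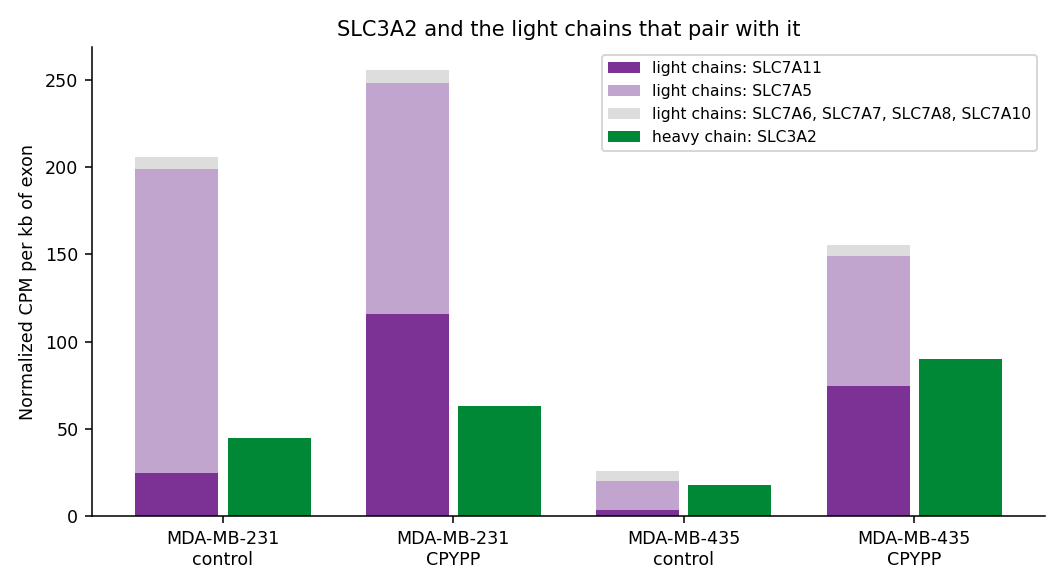
Stacked bars of the light chains SLC7A11, SLC7A5 and SLC7A6, SLC7A7, SLC7A8 and SLC7A10 together, beside a bar of the heavy chain SLC3A2, in normalized CPM per kb of exon for the 4 libraries (1 library per bar, no error bars). SLC7A11 goes from 25.0 to 116 in MDA-MB-231 and from 3.68 to 74.7 in MDA-MB-435, and SLC3A2 from 45.1 to 63.3 and from 18.2 to 90.0.

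The enzymes of glutathione synthesis were divided between the first and the second step. GCLC (ENSG00000001084, chr6:53497341-53616970), the catalytic subunit of the ligase, had 954 and 2529 counts in the breast cancer line and 1553 and 2777 in MDA-MB-435. It rose 3.62-fold (3.36 to 3.90) in the breast cancer line and 2.31-fold (2.17 to 2.46) in MDA-MB-435, the lowest fold among members called in that line. GCLM (ENSG00000023909, chr1:93885199-93909456), the modifier subunit, which raises the ligase's affinity for glutamate and lessens its inhibition by glutathione, had 3619 and 14293 counts in the breast cancer line and 1299 and 9218 in MDA-MB-435. It rose 5.39-fold (5.20 to 5.59) and 9.15-fold (8.63 to 9.70). GSS (ENSG00000100983, chr20:34928432-34956027), which adds glycine, had 3052 and 2334 counts in the breast cancer line and 3651 and 2707 in MDA-MB-435. Its folds of 1.04 (0.989 to 1.10) and 0.956 (0.909 to 1.01) had intervals that include 1, and with scaling by total counts the MDA-MB-231 value was 0.994. Genes that overlap GCLC or GSS had at most 15 counts in any library.

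GCLM gained on GCLC in both lines, less so in MDA-MB-231. There were 3.79 (3.53 to 4.08) GCLM reads per GCLC read in the control library of MDA-MB-231 and 5.65 (5.42 to 5.90) after CPYPP, a change of 1.49-fold (1.37 to 1.62). In MDA-MB-435 there were 0.836 (0.776 to 0.901) and 3.32 (3.18 to 3.46), a change of 3.97-fold (3.64 to 4.32). Per kb of exon GCLM was the more abundant transcript in all 4 libraries, at 6.03 and 8.98 times the GCLC level in MDA-MB-231 and 1.33 and 5.27 times in MDA-MB-435. In MDA-MB-435 the modifier subunit thus outpaced the catalytic subunit by nearly the same factor as the cystine light chain outpaced its heavy chain (3.97 and 4.10, with overlapping intervals).

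GSR (ENSG00000104687, chr8:30678066-30727846), glutathione reductase, had 1580 and 2929 counts in the breast cancer line and 1989 and 4087 in MDA-MB-435. It rose 2.53-fold (2.38 to 2.69) and 2.65-fold (2.51 to 2.80). Its folds in the lines were closer to each other than those of any other called member.

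CHAC1 (ENSG00000128965, chr15:40952962-40956512), which cuts glutathione into 5-oxoproline and cysteinylglycine, had the highest folds of the members from the lowest starting counts among those tested. It had 42 and 242 counts in MDA-MB-231, a rise of 7.86-fold (5.65 to 11.2), and 15 and 1054 counts in MDA-MB-435, a rise of 90.6-fold (54.7 to 162). The 15 counts of the MDA-MB-435 control library set the width of that interval. Even after CPYPP the level of CHAC1, at 7.05 normalized CPM per kb in the breast cancer line and 26.9 in MDA-MB-435, was below that of GCLM (157 and 88.9). GGT1 (ENSG00000100031, chr22:24594811-24629005), the cell-surface enzyme of glutathione breakdown, had 8 counts in each MDA-MB-231 library and 1 in each MDA-MB-435 library, so that no change could be detected at this depth and no fold is given for MDA-MB-435. Its near-identical copies had at most 2 counts each in any library except GGT8P, a pseudogene with 16 counts in the MDA-MB-435 control library and 1 after CPYPP. Reads that could not be placed among such copies may have been left out of the counting.

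The peroxidases did not pass the threshold in either line. GPX4 (ENSG00000167468, chr19:1103994-1106791), which reduces lipid peroxides in membranes and whose loss leads to ferroptosis, had 3282 and 2235 counts in the breast cancer line and 1825 and 1528 in MDA-MB-435, with folds of 0.929 (0.880 to 0.981) and 1.08 (1.01 to 1.16). The sign of the GPX4 difference in MDA-MB-435 turned with scaling by total counts (0.974) and by the upper quartile (1.00, just below 1). GPX1 (ENSG00000233276, chr3:49357176-49358353), the cytosolic peroxidase, had 3189 and 1928 counts in the breast cancer line and 4457 and 3092 in MDA-MB-435, with folds of 0.825 (0.779 to 0.873) and 0.895 (0.854 to 0.937). GPX1P1, a processed copy of GPX1, had 13 and 10 counts in the breast cancer line and 140 and 73 in MDA-MB-435, few beside GPX1 itself.

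**Figure D4:**
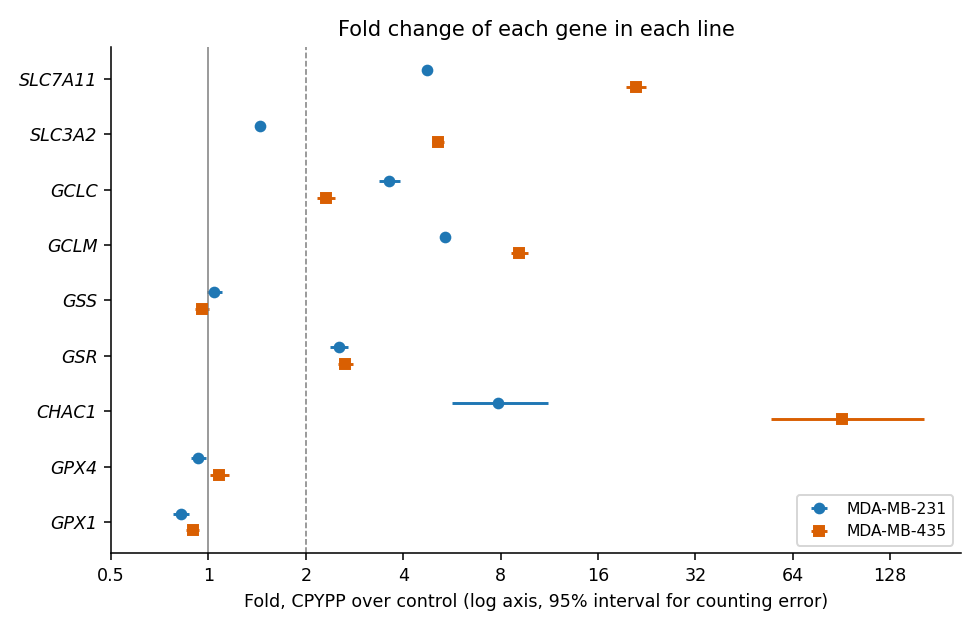
Fold of each tested member, CPYPP over control, in MDA-MB-231 (blue circles) and MDA-MB-435 (orange squares) on a log axis, with 95% exact binomial intervals for counting error; the solid line marks 1 and the dashed line the threshold of 2. SLC3A2 falls on different sides of the threshold in the lines (1.44 and 5.12), CHAC1 has the widest intervals, and GSS, GPX4 and GPX1 lie near 1.

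Taking the lines as the only repeat of the treatment, the effect common to both was estimated by a quasi-likelihood fit in edgeR that kept the line as a block and left 1 residual degree of freedom. Of the 9 members, 6 were higher at a Benjamini-Hochberg adjusted p under 0.05 and 0 lower, against 4.39% of 16801 tested genes higher and 2.85% lower. The edgeR log2 fold changes, each with its SE and adjusted p, were 4.55 (0.556, 0.00127) for CHAC1, 3.25 (0.380, 0.000956) for SLC7A11 and 2.76 (0.164, 9.55e-06) for GCLM. They were 1.48 (0.160, 0.000626) for GCLC, 1.39 (0.311, 0.0243) for SLC3A2 and 1.33 (0.109, 8.86e-05) for GSR, and each of these 6 genes was higher in 2 of 2 lines. GSR and GCLM had small SEs beside their effects, and SLC3A2 a large one. For each of these 6 genes the edgeR adjusted p was smaller by orders of magnitude with total counts or with no minimum count. Its size is thus not a stable measure with 1 residual degree of freedom. With edgeR, GPX1 had a log2 fold change of -0.26 (SE 0.107, unadjusted p = 0.0345, adjusted p = 0.190) and was the 1 member with an unadjusted p under 0.05 among those lower, and GSS (-0.04, adjusted p = 0.881) and GPX4 (-0.04, adjusted p = 0.889) did not pass either. With DESeq2 in place of edgeR, SLC3A2 lost its call (adjusted p = 0.260) and GPX1 was called lower (-0.26, adjusted p = 0.0211). Over all genes DESeq2 called 1263 of 12566 higher and 868 lower. Without the block for the line no member passed (edgeR adjusted p = 1.00), and neither did any other of the 16801 tested genes.

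Several members responded by different amounts in the lines. The fold in MDA-MB-435 divided by that in MDA-MB-231 was 11.5 (6.29 to 21.1) for CHAC1, 4.42 (4.10 to 4.77) for SLC7A11 and 3.56 (3.37 to 3.76) for SLC3A2. It was 1.70 (1.58 to 1.82) for GCLM and 1.05 (0.965 to 1.14) for GSR, and the intervals come from counting error alone. GCLC went the other way, its fold in MDA-MB-231 being 1.57 times (1.42 to 1.73) that in MDA-MB-435. CHAC1, SLC7A11 and SLC3A2 were thus 3 of 9 members whose log2 folds were more than 1 apart, a gap shown by 9.49% of the 14262 genes tested in both. No test of these differences across cultures was possible, since an interaction leaves no residual degree of freedom with 1 library per condition.

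The lines also differed before treatment, and the control libraries enter both this comparison and the folds above. Levels are in normalized CPM per kb of exon with TMM factors from all 4 libraries. In the control libraries SLC7A11 was at 25.0 in the breast cancer line and 3.68 in MDA-MB-435, a 6.79-fold lower level (6.31 to 7.31) in MDA-MB-435. GCLM was at 29.9 and 10.1 (2.97-fold lower in MDA-MB-435, 2.79 to 3.17), CHAC1 at 0.918 and 0.307 (2.99-fold lower, 1.62 to 5.80) and SLC3A2 at 45.1 and 18.2 (2.48-fold lower, 2.37 to 2.59). These 4 were called lower in MDA-MB-435, as were 20.8% of 18269 tested genes, and 0 members were called higher, against 22.4%. GPX4 was at 75.4 and 39.3, a ratio of 1.92 that did not reach 2, and GCLC, GPX1, GSR and GSS were 1.53-fold, 1.31-fold, 1.18-fold and 1.12-fold higher in MDA-MB-435, none of them called.

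After CPYPP the lines lay closer together for SLC7A11 and the ligase subunits. SLC7A11 was at 116 in the breast cancer line and 74.7 in MDA-MB-435, 1.55-fold lower (1.52 to 1.59) in MDA-MB-435, and GCLM at 157 and 88.9, 1.77-fold lower. GCLC was at 17.5 and 16.9, with a ratio of 0.962 (0.911 to 1.02) whose interval includes 1. SLC3A2 changed order, at 63.3 in the breast cancer line and 90.0 in MDA-MB-435, 1.42-fold higher (1.38 to 1.46). CHAC1 changed order too, at 7.05 and 26.9, and was the 1 member called between the CPYPP libraries (3.82-fold higher in MDA-MB-435, 3.32 to 4.41, where 19.3% of 17054 tested genes were higher and 21.8% lower). GPX1 (97.8 and 137), GPX4 (68.4 and 41.0), GSR (48.6 and 59.4) and GSS (22.6 and 22.97) were not called between the lines.

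The order of the members by level per kb differed between control and CPYPP libraries. In the MDA-MB-231 control library GPX1 stood highest, at 121, followed by GPX4, SLC3A2, GCLM, SLC7A11, GSS, GSR, GCLC, CHAC1 and GGT1 (0.0819). After CPYPP GCLM stood highest there, at 157, followed by SLC7A11 and GPX1. In the MDA-MB-435 control library GPX1 (159) stood well above GPX4, and SLC7A11 (3.68) was below every member but CHAC1 and GGT1. After CPYPP GPX1 (137) was still highest, followed by SLC3A2 (90.0, 88.3 to 91.7) and GCLM (88.9, 87.1 to 90.7), whose counting intervals overlap, and then SLC7A11. In the MDA-MB-435 control library GSS (24.9) and GSR (23.2, 22.2 to 24.3) were neighbours whose intervals just overlap.

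**Figure D5:**
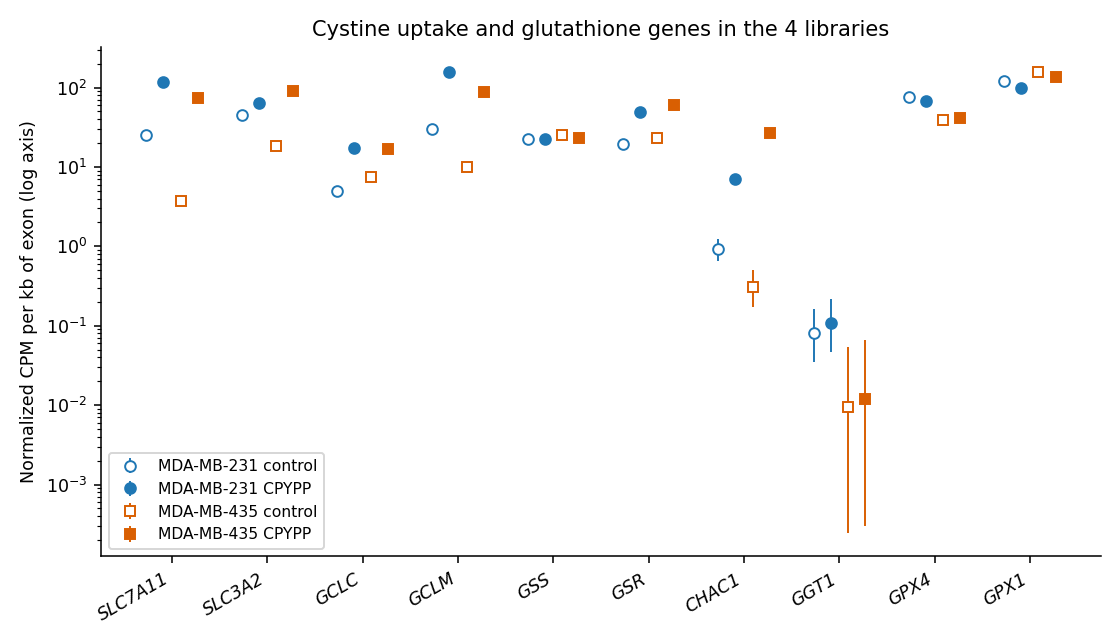
Level of each member in the 4 libraries, in normalized CPM per kb of exon on a log axis; open symbols are control libraries, filled symbols CPYPP libraries, circles MDA-MB-231 and squares MDA-MB-435, with 95% exact Poisson intervals that are hidden by the symbols for well counted genes. SLC7A11, SLC3A2, GCLC, GCLM, GSR and CHAC1 have both filled symbols above both open ones, GSS and the peroxidases do not, and GGT1 lies near 0.1 or below in every library.

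Among the other glutathione pathway genes, ABCC2 was called higher in both lines, SLC7A5 and CTH higher in MDA-MB-435, and PTGS2 lower in MDA-MB-231. In 8 lists that cover other amino acid transporter chains, cysteine and glutamate supply, glutathione breakdown and transport, other glutathione peroxidases, selenocysteine insertion, glutathione transferases, glutaredoxins with glyoxalases, and lipid peroxidation with ferroptosis, there were 87 further genes, of which 86 were in the table. In MDA-MB-231, 62 of them were tested, 1 was called higher and 1 lower, where 4.22% and 3.09% of all tested genes were. In MDA-MB-435, 53 were tested, 3 were called higher and 0 lower, where 3.17% and 6.52% of all tested genes were. Their median log2 folds were 0.00 and 0.16, beside -0.01 and -0.02 over all tested genes.

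ABCC2, an export pump for glutathione conjugates, had 53 and 114 counts in MDA-MB-231 (2.94-fold, 2.10 to 4.15) and 1777 and 5111 in MDA-MB-435 (3.71-fold, 3.51 to 3.92). The others called in 1 line were SLC7A5 (MDA-MB-435), PTGS2, which makes prostaglandins (lower in MDA-MB-231, 50 to 17 counts, fold 0.464) and CTH, which makes cysteine from cystathionine (MDA-MB-435, 27 to 76 counts, 3.63-fold, and 1.97-fold without a call in MDA-MB-231). CTH and PTGS2 were singled out after their values were seen. Besides SLC7A5, the best counted genes of the lists given here were called in neither line, with folds in the breast cancer line and MDA-MB-435 of 0.971 and 0.993 for the peptidase LAP3, 0.981 and 1.42 for GPX8 and 0.879 and 0.961 for SEPHS2, which makes the selenium donor for selenoproteins. They were 1.18 and 1.39 for the transferase GSTP1, 1.13 and 1.30 for the glyoxalase GLO1, and 1.09 and 1.05 for ACSL4, which loads membranes with polyunsaturated fatty acids. None of the 14 and 12 glutathione transferases tested in the breast cancer line and MDA-MB-435 was called, nor any of 6 selenocysteine insertion genes. Over all tested genes 4.22% and 3.17% were called higher and 3.09% and 6.52% lower, so lists of this size may well hold none. GSTT1 was not analysed here.

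Among 8 regulators that are known to act on these genes or on one another, 4 were called higher in the breast cancer line and 6 in MDA-MB-435, where 4.22% and 3.17% of all tested genes were, and 0 lower. The 4 became 2 (ATF3 and MAFG) with total counts, DESeq2 size factors or the upper quartile, since BACH1 and DDIT3 lay at the threshold. NFE2L2 (NRF2) had 3765 and 3590 counts in MDA-MB-231 (1.30-fold) and 3788 and 5732 in MDA-MB-435 (1.95-fold), and its inhibitor KEAP1 had folds of 1.23 and 1.44, none of them called. BACH1, a repressor that competes with NRF2 at antioxidant response elements, had folds of 2.03 (1.94 to 1.98 under other scalings) and 2.92, and MAFG, the small MAF partner of both, rose 2.52-fold and 2.40-fold. ATF4 had a fold of 1.51 in MDA-MB-231, not called, and rose 2.80-fold in MDA-MB-435. ATF3 rose 4.86-fold and 27.2-fold, and DDIT3 (CHOP) had folds of 2.05 (1.957 to 2.01 under other scalings) and 5.08. TRIB3, a pseudokinase that holds ATF4 in check and was named after its values were seen, had a fold of 1.83 in MDA-MB-231, not called, and rose 3.25-fold in MDA-MB-435. The study itself listed ATF4 and TRIB3 as significantly upregulated in both lines. Its MDA-MB-231 results for both genes thus differ from the values found here, and the reason was not tested. Of the 8 regulators, 7 had the higher fold in MDA-MB-435, the exception being MAFG, and these differences were not tested.

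The genes most like SLC7A11 and SLC3A2 in their pair of log2 folds were sought among 9363 genes with at least 100 counts in each of the 4 libraries, by Euclidean distance over 2 points, 1 for each line. Nearest to SLC7A11 were SESN2 (distance 0.271, folds 5.71 and 21.9), ATF3 (0.375, 4.86 and 27.2), GCLM (1.21), FBXO30 (1.31, 5.88 and 8.68) and DNAJB4 (1.46, 7.56 and 8.57). Only SESN2 and ATF3 of these lay within a distance of 1. Nearest to SLC3A2 were NEAT1 (0.261, 1.23 and 4.69), PMAIP1 (0.331, 1.78 and 4.71), CXCL8 (0.494, 1.63 and 7.04), DDIT3 (0.513, 2.05 and 5.08) and XBP1 (0.536, 1.85 and 3.90).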

How the data were processed

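Poly(A) RNA of 4 libraries, 1 per line and treatment, was analysed, and groups were taken from the sample labels. The authors deposited a table of unnormalized read counts for 61806 genes (32210 with at least 1 count). The submitters' processing notes name cutadapt 1.9.1, HISAT2 2.2.1, HTSeq 0.6.1, DESeq2 and genome GRCh37.p13, but the table's positions are those of GRCh38, since 58241 of 58254 identifiers shared with GENCODE v29 overlap the position given there. Strand setting is not stated.

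Counts were analysed in R 4.3.3 (edgeR 4.0.16, DESeq2 1.42.0, limma 3.58.1) and Python 3.11.15 (numpy 2.4.6, pandas 2.3.3, scipy 1.17.1, matplotlib 3.10.9). Within a line, genes with at least 10 counts in 1 of its 2 libraries were tested. TMM factors (control, CPYPP) were 1.02 and 0.976 for MDA-MB-231, 1.05 and 0.950 for MDA-MB-435. Counts of 3 or fewer were set to 3 for folds of listed genes, except in the ratio given for SLC7A11-AS1. The common effect used filterByExpr, and SEs were recovered from the F statistic. The coefficient of variation that edgeR fitted over all genes was 0.121, and 0.881 without the block for the line. It reflects what line and treatment left over in the 4 libraries, not a spread between cultures of a line. The fitting was tested on simulated data. For the common effect these data gave both lines the same change, so the test did not cover genes whose change differs between the lines. With 17196385 or more counts per library, 3 counts correspond to at most 0.174 CPM.

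The members and lists were chosen with earlier results of these data known. Named genes are the members, list genes called in both lines or beyond 4-fold in 1 line, the best counted gene of each list (1 is not reported here), NFE2L2, KEAP1, ATF4, member copies with at least 10 counts, and 5 neighbours each of SLC7A11 and SLC3A2. Alternatives concerned scaling, count filters, fold limits, assumed variation, DESeq2 and the block for the line.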

Additional observations from a re-analysis of the deposited data

Results flagged for a closer look

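Genes whose single control and CPYPP libraries differed in opposite directions in the lines were singled out. The difference between the lines was not tested for any of them. SLC7A5, the leucine transporter light chain that shares SLC3A2 with SLC7A11, had a log2 fold of -0.36 in MDA-MB-231, but of 2.21 in MDA-MB-435. GPX8, a peroxidase of the endoplasmic reticulum, had log2 folds of -0.03 and 0.50. GPX4 had log2 folds of -0.11 and 0.11, and GSS 0.06 and -0.06. The intervals of both GSS folds include 1, and the GPX4 and GSS values changed sign with other scalings.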

How the results depend on the processing

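With 1 library per condition no spread between cultures could be estimated, depth limited CHAC1 (15 counts in 1 library) and GGT1 (8 counts or fewer), and no library could be left out. Libraries were paired by line alone, as the block of the common effect. Beyond this, no paired analysis was possible because each line had 1 library per treatment. Values were recomputed for the counts of called members, regulators and pathway genes, the subunit differences and the common effect. Of these, 79 stayed (counts within 1.5 times, subunit differences inside their counting interval) and 9 moved. Many of the 79 are counts of genes called lower that were 0 and stayed 0. The members called higher in MDA-MB-231 numbered 3 with a fold over 4 and 0 once a biological coefficient of variation of 0.4 was assumed, and those in MDA-MB-435 numbered 2 (SLC7A11 and CHAC1) at 0.4. A coefficient of 0.2 ended the calls of GSR in MDA-MB-231 and GCLC in MDA-MB-435. Calls over all genes were not counted for the fold limit of 4 or the assumed coefficients. In the common effect, 0 members were higher with no block for the line, and 0 of all 16801 tested genes were higher or lower (edgeR, 167 of all genes at an unadjusted p under 0.05, member adjusted p = 1.00). With DESeq2, 1 member, GPX1, was lower, as were 868 of 12566 genes. The regulators called higher in MDA-MB-231 numbered 2 with total counts, DESeq2 size factors or the upper quartile, and 1 pathway gene, ABCC3, was lower in MDA-MB-435 with total counts. Among single genes 140 values kept direction and call, 25 lost the call, 1 gained it and 3 changed sign: GSS in MDA-MB-231 at 0.994 with total counts, and GPX4 in MDA-MB-435 at 0.974 with total counts and 1.00 (just under 1) with the upper quartile. In MDA-MB-435 total counts and the upper quartile moved the median log2 fold of all tested genes to -0.16 and -0.13 and the share of higher among called genes from 32.7% to 19.9% and 22.8%, and in MDA-MB-231 total counts moved that share from 57.7% to 50.04%. TMM factors from all 4 libraries, the addition of SLC7A11-AS1 reads and all scalings of regulators and pathway genes were tried after the data had been seen. The cause of these changes was not tested.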
